A study of Arabidopsis thaliana with 4 samples.

Results

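The 44 nuclear genes described here encode the light-harvesting antenna and the imported subunits of the photosystems in Arabidopsis thaliana. They were taken by locus code from the 32627 genes of the array, and all 44 had a value. No measured value entered that rule, but the members were chosen with earlier results of these data known. There were 20 antenna genes (LHCA and LHCB), 12 photosystem I subunit genes (PSA), 9 photosystem II subunit genes (PSB) and 3 stress or quenching relatives of the antenna (ELIP1, ELIP2 and PSBS).

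Col-0 seedlings on soil, kept at 22 °C in long days of 16 hours light and 8 hours dark, were harvested 13 days after germination. The wild type, which flowered normally, was set against a late-flowering line carrying 35S::JMJ30-HA, which places HA-tagged JMJ30, encoding a histone demethylase, behind the viral 35S promoter, active in most plant tissues. Each genotype had 2 one-colour arrays, numbered replicate 1 and 2 and described as biological replicates. Same-numbered arrays are called set 1 and set 2, because the design text speaks of independent sets that hold both genotypes. The labels give neither the hour of harvest nor the number of transgenic lines behind the arrays. JMJ30 (AT3G20810) read 705 and 567 on wild-type replicates 1 and 2 and 1054 and 721 on the transgenic ones, without overlap between the genotypes, but it was not called (adjusted p = 1.0 in limma).

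In the thylakoid membrane, pigment-binding LHC proteins collect light and pass the energy to the reaction centres. LHCA proteins surround photosystem I, which reduces ferredoxin, and LHCB proteins surround photosystem II, which oxidizes water. The reaction-centre proteins are encoded in the chloroplast, whereas the genes described here are nuclear and their products are imported. Their transcripts are abundant in green tissue and are known to respond to light and to the circadian clock.

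limma called no member between the genotypes, and the antenna, photosystem I and photosystem II genes were alike in having median differences near 0. The widest differences among members lay between the sets. The 3 LHCB2 genes, which encode part of the trimeric antenna of photosystem II, read 1.68-fold to 2.49-fold higher in set 2 than in set 1 in both genotypes combined, without passing the test over all genes.

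Intensity values are the authors' normalized values on a linear scale, and paired values are given in the order replicate 1 and replicate 2. Probes differ between genes, so a level places a gene on the array and does not rank transcript amounts. Over the 4 arrays 28 of the 44 members had a mean intensity above 1000, a level reached by 186 of all 32627 genes. The median member lay at 1113, above 99.6% of genes, against a median of 24.2 for all genes. The antenna genes had a median of 1193 with a range from 7.86 to 1671, the photosystem I genes one of 1078 from 623 to 1451, and the photosystem II genes one of 1115 from 246 to 1306. The antenna therefore had the widest range, since photosystem I held no member under 500 and photosystem II only PSBY.

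**Figure D1:**
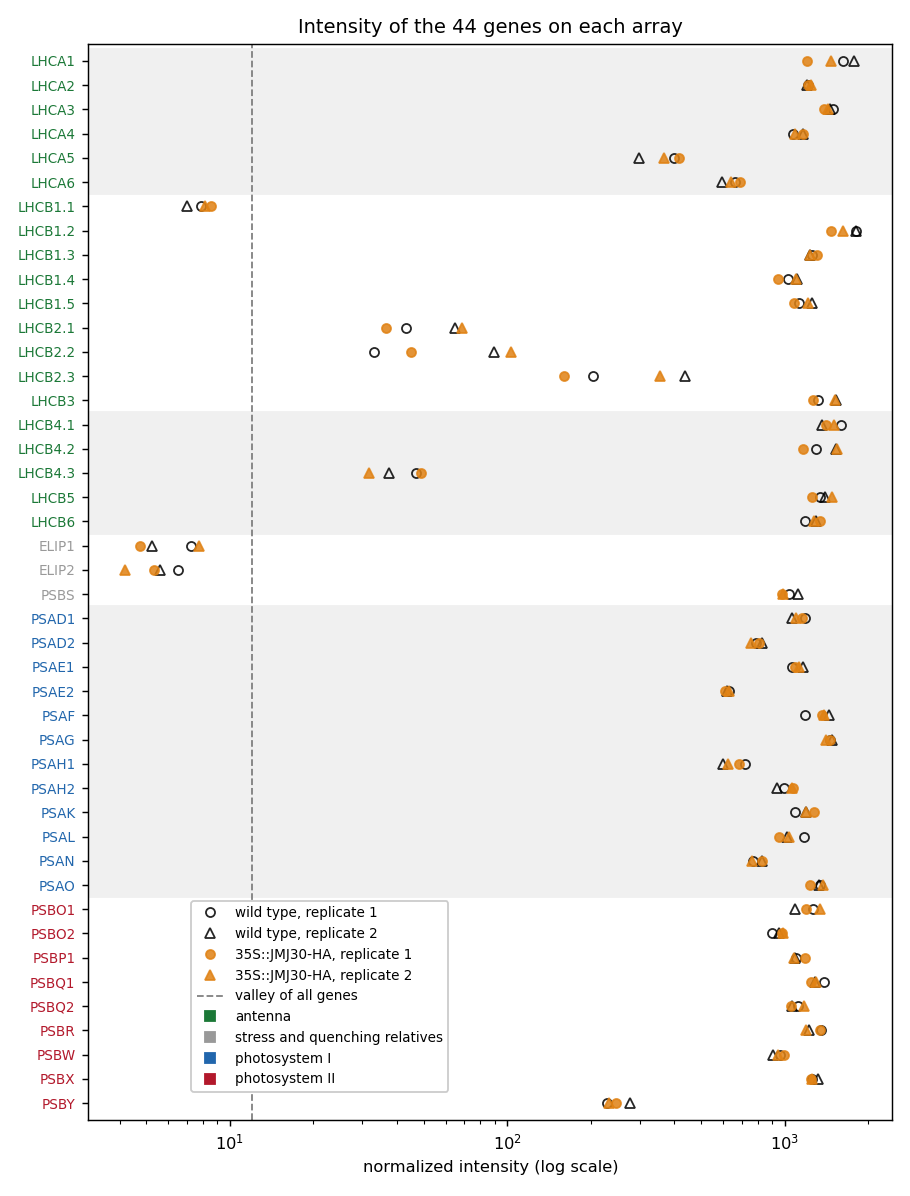
Normalized intensity (log scale) of each of the 44 genes on the 4 arrays, black for the wild type and orange for 35S::JMJ30-HA, circles for replicate 1 and triangles for replicate 2, with bands for the functional groups. Of the 44 genes 35 have a mean above 500, while LHCB1.1, ELIP1 and ELIP2 lie left of the dashed line, the valley between the modes of all genes at 12.0.

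LHCB1.1 and both ELIP genes lay near background, that is, with means in both genotypes under the valley of 12.0 between the modes of all genes' intensities. LHCB1.1 (CAB2, AT1G29920) read 6.98 to 8.57, ELIP1 (AT3G22840) 4.73 to 7.74 and ELIP2 (AT4G14690) 4.18 to 6.48. The ELIP genes encode early light-induced proteins, known to accumulate in strong light. LHCB1.1 lies directly between LHCB1.2 (CAB3, AT1G29910) and LHCB1.3 (CAB1, AT1G29930) in the gene order of TAIR10.1, with no protein-coding gene between them. The neighbours read 1476 to 1808 and 1232 to 1306, and the proteins of the 3 genes are known to be nearly identical. The sources used here give no probe sequences, so signal from near-identical copies may be shared, and the values of single LHCB1 and LHCB2 genes are uncertain to that extent.

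The genotype comparison asked whether the JMJ30 line differs from the wild type. limma called 0 of the 44 members, against 0% of all genes. An unadjusted p under 0.05 was found in 0 members, against 2.99% of all genes. Such values were rare among bright genes in general, with 1 gene higher and 0 lower among the 1473 genes above 500. That level was reached by 35 members. Of the members 17 were higher and 27 lower with the transgene, at a median log2 difference of -0.02, beside a median of -0.0039 over all genes. With arrays centred on their medians the split was 25 higher and 19 lower, and with 1 array left out between 19 and 25 members were higher. The 95% intervals of the 35 members above 500 all lay between -0.88 and 0.61 on the log2 scale. The number of arrays limits the precision, with a median half-width of 0.47 for those intervals, so a difference smaller than that could be missed in a single member.

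The 6 LHCA genes, which encode the photosystem I antenna, split into 4 higher and 2 lower. LHCA1 (AT3G54890), whose protein pairs with LHCA4 at the photosystem I core, had the largest difference of the 44 members with the brightest model, ahead of ELIP2 at -0.35. It read 1625 and 1783 on the wild-type arrays, against 1201 and 1467 with the transgene. Both transgenic arrays lay below both wild-type arrays. The log2 difference was -0.36, with a 95% interval from -0.88 to 0.16, and it was -0.44 in set 1 and -0.28 in set 2 (adjusted p = 1.0). With the mean of all models it was -0.12, smaller than that of ELIP2, and without transgenic replicate 1 it was -0.22. LHCA3 (AT1G61520) also lay lower without overlap, at 1498 and 1462 against 1383 and 1436, a log2 difference of -0.07 (95% interval -0.53 to 0.39). LHCA2 (AT3G61470) and LHCA4 (AT3G47470) overlapped between the genotypes, at 1207 to 1247 and 1070 to 1165 over the 4 arrays. LHCA5 (AT1G45474) and LHCA6 (AT1G19150), known to link photosystem I to the NDH complex of cyclic electron flow, had log2 differences of 0.18 and 0.09, also with overlapping arrays.

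Of the 9 genes of the major photosystem II antenna 3 were higher and 6 lower, with a median log2 difference of -0.05. LHCB1.2 read 1804 and 1808 on the wild-type arrays, against 1476 and 1618 with the transgene. These groups did not overlap, with a log2 difference of -0.22 (95% interval -0.69 to 0.24), -0.29 in set 1 and -0.16 in set 2. Its tandem neighbour LHCB1.3, at 1260 and 1235 against 1306 and 1232, had a difference of 0.02, and the other tandem pair, LHCB1.4 (AT2G34430) and LHCB1.5 (AT2G34420), had differences of -0.07 and -0.05. LHCB1.1 lay higher in the transgenic line without overlap, at 7.87 and 6.98 against 8.57 and 8.10, all near background. LHCB3 (AT5G54270), the third kind of subunit in the antenna trimers, had a difference of -0.04.

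The LHCB2 genes had the widest intervals of all members. LHCB2.2 (AT2G05070) had a genotype difference of 0.33 with an interval from -1.23 to 1.88, and LHCB2.3 (AT3G27690) one of -0.32 with an interval from -1.68 to 1.03. With the replicate number as a block these intervals were -0.13 to 0.78 and -0.76 to 0.11, and neither gene was called (adjusted p = 0.883 and 0.872). LHCB2.1 (AT2G05100) had a difference of -0.08. In each genotype the arrays of these 3 genes were farther apart than the genotypes were.

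The 5 genes of the minor photosystem II antenna, whose proteins bind singly between the trimers and the core, all overlapped between the genotypes. LHCB6 (CP24, AT1G15820) had a difference of 0.08, LHCB4.1 (CP29, AT5G01530) one of -0.02 and LHCB5 (CP26, AT4G10340) one of -0.0021. LHCB4.2 (AT3G08940) and LHCB4.3 (AT2G40100) had differences of -0.07 and -0.09. Among the relatives, PSBS (AT1G44575), which is needed for the rapid release of excess energy as heat, read 1041 and 1119 against 976 and 988. Its transgenic arrays both lay lower, with a log2 difference of -0.14 (95% interval -0.60 to 0.33). ELIP2 also lay lower without overlap, near background.

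Of the photosystem I subunit genes 4 of 12 were higher, with a median log2 difference of -0.0090, and 8 of 12 with arrays centred on their medians. Their median size without regard to sign was 0.03, beside 0.05 for photosystem II and 0.07 for the antenna, while their range from -0.14 to 0.14 was wider than that of photosystem II, from -0.07 to 0.11. PSAH2 (AT1G52230), whose protein forms part of the site where LHCII docks, read 997 and 936 on the wild-type arrays, against 1070 and 1065 with the transgene. The groups did not overlap, and the log2 difference was 0.14 (95% interval -0.32 to 0.61). Its paralogue PSAH1 (AT3G16140) overlapped, with a difference of -0.0092. PSAK (AT1G30380), near the antenna side of the core, read 1091 and 1194 against 1274 and 1194.4, so the higher wild-type array and the lower transgenic array were almost equal. PSAL (AT4G12800), the neighbour of PSAH in the complex, had the lowest difference of the group at -0.14, with -0.30 in set 1 and 0.03 in set 2. The other paralogous pairs were close to 0, with differences of 0.01 and -0.04 for PSAD1 (AT4G02770) and PSAD2 (AT1G03130), and -0.01 and -0.0068 for PSAE1 (AT4G28750) and PSAE2 (AT2G20260), stromal subunits at the ferredoxin site. PSAF (AT1G31330), which binds the electron donor plastocyanin, had a difference of 0.08, and PSAG, PSAN and PSAO lay between -0.03 and -0.0088.

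Photosystem II subunit genes split 5 higher and 4 lower, with a median of 0.03, or 6 and 3 with centred arrays. PSBO2 (AT3G50820), of the water-oxidizing complex, was higher without overlap at 901 and 958 against 979 and 985 (log2 difference 0.08, 95% interval -0.38 to 0.54). Its paralogue PSBO1 (AT5G66570) had a difference of 0.11, but -0.08 in set 1 and 0.29 in set 2. The other extrinsic subunit genes, PSBP1 (AT1G06680), PSBQ1 (AT4G21280) and PSBQ2 (AT4G05180), had differences of 0.05, -0.07 and 0.03. PSBX (AT2G06520), a small membrane subunit, lay lower without overlap, at 1257 and 1320 against 1242 and 1253. PSBR, PSBW and PSBY had differences of -0.02, 0.05 and -0.07.

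**Figure D2:**
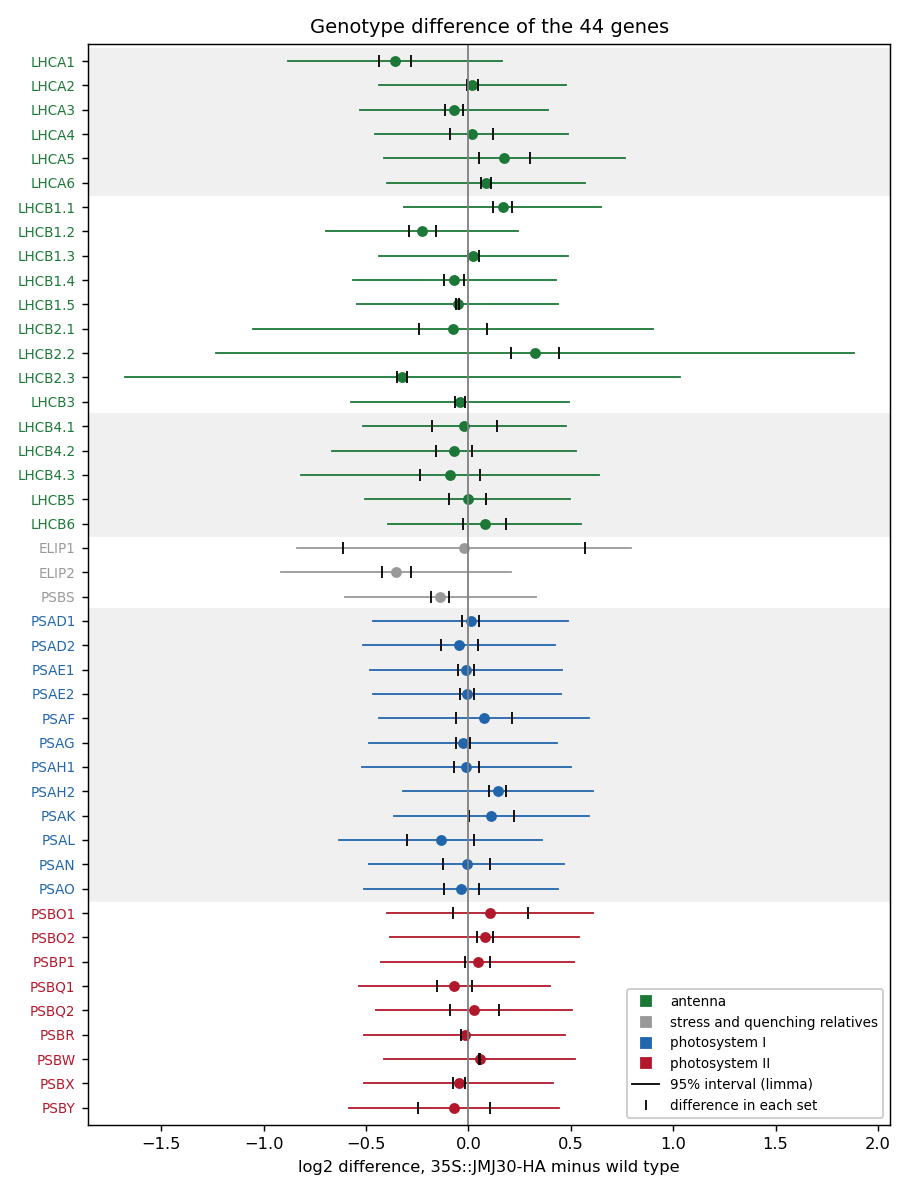
Log2 difference of each gene, 35S::JMJ30-HA minus wild type, with its 95% interval from limma (horizontal lines) and the difference within each set (black ticks). Every interval crosses 0, and the intervals of LHCB2.2 and LHCB2.3 are the widest.

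Counted over all members, the groups did not overlap for 4 higher genes (LHCB1.1, PSAH2, PSAK and PSBO2) and 6 lower genes (LHCA1, LHCA3, LHCB1.2, ELIP2, PSBS and PSBX). Over all genes the shares were 12.7% higher and 13.3% lower without overlap, so the counts among the members lay near the background. The median size of the genotype difference was 0.07 for the members and 0.14 for all genes. It was also smaller for bright genes in general, at 0.07 over the 1473 genes above 500, where the 35 members at that level had 0.05. Across the 20 antenna genes the differences in set 1 and set 2 correlated at 0.54, and at 0.43 across the 17 without LHCB2. Among those 17, LHCA1 had the lowest difference in both sets, at -0.44 and -0.28 with its brightest model. The correlation without LHCA1 was not computed. Across the 12 photosystem I genes the correlation was -0.25 and across the 9 photosystem II genes -0.50. Over all genes it was 0.03, over the 1473 genes above 500 it was 0.01, and across the 35 members above 500 it was 0.16. These are descriptions over genes measured on the same arrays.

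The sets were compared in a fit with genotype as a second term. limma called 0 members, against 0.0123% of all genes (4 genes). At an unadjusted p under 0.05, 3 members were higher in set 2, against 8.35% of all genes, and 1 was lower, against 7.11%. The arrays of the sets did not overlap for 10 members that were higher in set 2 and 9 that were lower, beside 25.5% and 23.2% of all genes. The counts over all 44 members were thus near the background, and their median size without regard to sign was 0.08, against 0.21 for all genes. Bright genes in general had smaller set differences, with a median size of 0.11 over the 1473 genes above 500, where the 35 members at that level had 0.06.

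The 3 members with the largest differences were the LHCB2 genes, whose proteins are among the antenna subunits known to be phosphorylated in state transitions. LHCB2.2 read 33.1 in wild-type replicate 1 and 89.2 in replicate 2, and 44.9 and 103 in the transgenic line. LHCB2.3 read 203 and 438 on the wild-type arrays, against 160 and 356 with the transgene. LHCB2.1 read 43.2 and 64.7 on the wild-type arrays, against 36.6 and 68.8 with the transgene. In each of these genes both arrays of set 2 lay above both arrays of set 1.

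The log2 difference, set 2 minus set 1, was 1.32 for LHCB2.2 (95% interval 0.86 to 1.77, adjusted p = 0.121), 1.13 for LHCB2.3 (0.70 to 1.56, adjusted p = 0.137) and 0.75 for LHCB2.1 (0.27 to 1.22, adjusted p = 0.211). All 3 were called with trend and robust settings, with a pseudocount of 16, and among the genes above the median level only. Adjusted p in limma ran from 4.87e-19 to 0.0334 over those settings. In that order the settings called 4, 3 and 3 members, beside 3553 and 1852 of 32627 genes and 2106 of 16313 genes in all. The LHCB2 genes were not called with quantile normalization, median centring, the mean of all models or without the genotype term. LHCB2.1 and LHCB2.2 are tandem neighbours with no protein-coding gene between them, while LHCB2.3 lies on another chromosome.

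The other 11 LHCB genes differed less between the sets, with 7 higher and 4 lower in set 2. Of these 11, 5 lay higher without overlap and 2 lower, beside 25.5% and 23.2% of all genes. LHCB3 lay higher, at 1320 and 1532 on the wild-type arrays, against 1262 and 1515 with the transgene, a log2 difference of 0.24 (95% interval -0.19 to 0.67). LHCB4.2 read 1299 and 1534 on the wild-type arrays, against 1163 and 1551 with the transgene, a difference of 0.33 (-0.12 to 0.77), which was called with trend and robust settings only (adjusted p = 0.0395). LHCB5, LHCB1.4 and LHCB1.5 each had a difference of 0.16. LHCB4.3, a less bright relative of LHCB4.2, went the other way, at 47.03 and 37.4 on the wild-type arrays, against 49.0 and 31.7 with the transgene, a difference of -0.48 (-0.95 to -0.01, adjusted p = 0.316). LHCB1.3 also lay lower in set 2 without overlap, by a difference of -0.06, and LHCB1.1 and LHCB4.1 had differences of -0.13 and -0.07 with overlapping arrays.

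Among the 6 antenna genes of photosystem I, 4 had positive set differences, all with overlapping arrays and the largest in LHCA1 at 0.21, and with arrays centred on their medians 1 of 6 was positive. The LHCA genes whose arrays did not overlap between the sets were both lower in set 2, LHCA5 at 401 and 298 on the wild-type arrays, against 415 and 367 with the transgene (-0.30), and LHCA6 at 664 and 593 against 693 and 640 in the same order (-0.14). The photosystem I core had a median set difference of -0.0073 and the photosystem II subunits one of -0.02, beside 0.05 for the 20 antenna genes and 0.0091 for all genes. Without the LHCB2 genes the antenna median was 0.02. In the core groups the largest sizes were -0.19 for PSAH1 and -0.16 for PSBR (AT1G79040), and 0.15 for PSAF, all 3 with arrays that did not overlap.

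**Figure D3:**
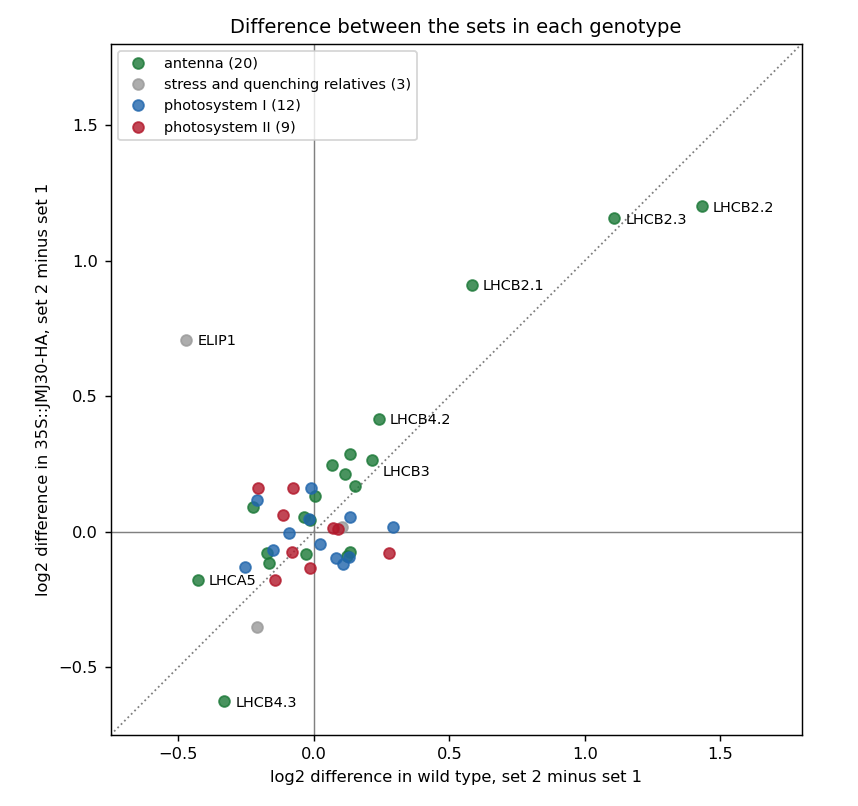
Log2 difference between set 2 and set 1 in the wild type (x axis) and in 35S::JMJ30-HA (y axis), 1 point per gene, coloured by group, with the dotted line marking equal values. LHCB2.1, LHCB2.2 and LHCB2.3 lie apart at the upper right, and ELIP1, near background, differs in sign between the genotypes.

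The set differences of the 20 antenna genes in the wild-type arrays and in the transgenic arrays, which come from separate arrays, correlated at 0.92 across genes, and at 0.73 across the 17 genes left without LHCB2. Over all genes the same correlation was 0.42, and over the 18259 genes above the valley it was 0.67. It was 0.51 over the 1473 genes above 500 and 0.19 over the 186 genes above 1000. The value without LHCB2 was thus near that of genes above the valley. It cannot be set directly against that of bright genes, since LHCA5, LHCB4.3 and LHCB1.1 among the 17 lay under 500. Across the 35 members of all groups above 500 the correlation was 0.30. Of the 20 antenna genes 14 had a mean above 500. The same correlation was -0.02 across the photosystem I genes and -0.28 across the photosystem II genes. Of the antenna genes 10 were higher in set 2 in both genotypes and 5 lower in both, and the other 5 differed in sign, beside 32.3% of all genes higher in both and 30.1% lower in both.

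Transcript models of 1 gene did not always move together. Of the 8 members with several models, LHCA1 had 4, with genotype differences of -0.15, -0.04, -0.36 and 0.05 for models 1 to 4, so that the low value above belongs to the brightest model, model 3. Model 4 of LHCA1, the dimmest, read 172 and 326 on the wild-type arrays, against 184 and 328 with the transgene, a set difference of 0.88, whereas model 2 had -0.05. Model 2 of LHCA3 read 36.9 and 51.9 on the wild-type arrays, against 42.2 and 62.8 with the transgene (set difference 0.53), beside 0.0094 for the brighter model 1. The models of LHCB4.2 and of LHCA5 moved alike between the sets, at 0.33 and 0.39 and at -0.30 and -0.29. Between the genotypes the models of each differed in sign, at -0.07 and 0.10 for LHCB4.2 and 0.18 and -0.0016 for LHCA5. The sources used here do not say which part of a transcript the probes of each model read.

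**Figure D4:**
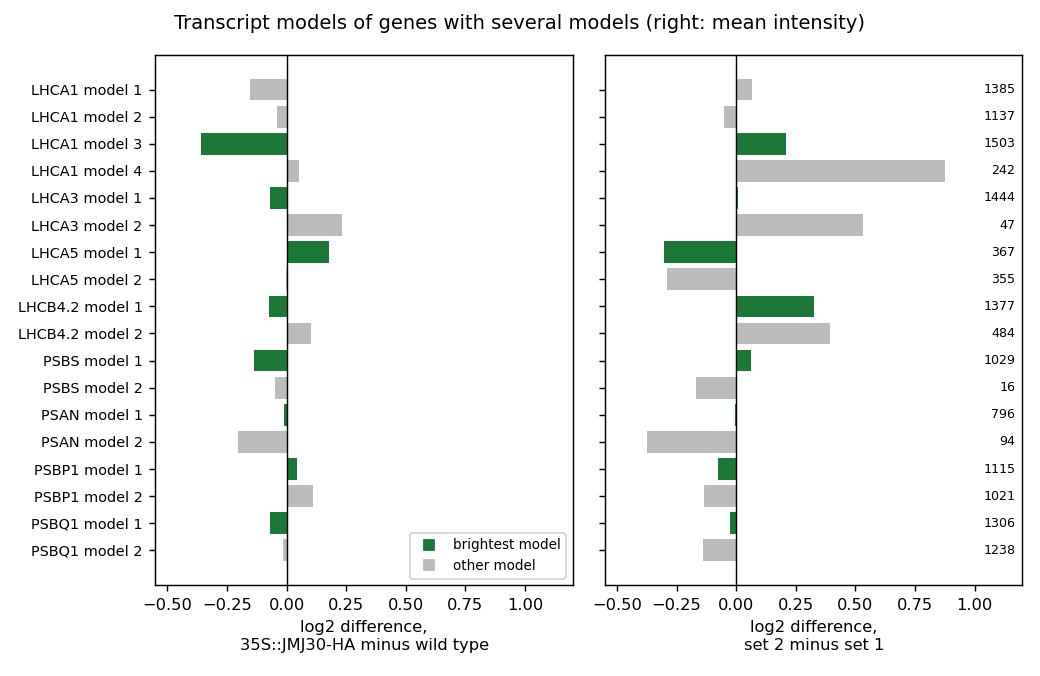
Log2 differences of every transcript model of the 8 genes with several models, between genotypes (left) and between sets (right), with the mean intensity of each model at the right edge. Green bars are the brightest model, which stands for the gene, and model 4 of LHCA1 has the largest set difference at 0.88.

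Other genes of photosynthesis were counted in the same fits, and limma called 0 of them in either comparison. Between genotypes, 7 of 12 further subunit, antenna-related and assembly genes were higher (median 0.09), with log2 differences of 0.32 for LIL3:2, which acts in chlorophyll synthesis, and 0.25 for PSBP2. In antenna import and insertion 1 of 4 was higher (median -0.11), with -0.18 for CPSRP54 and -0.14 for CPFTSY, both of the signal recognition pathway that delivers LHC proteins. Electron transport and ATP synthase genes were higher for 8 of 12 (median 0.04), with 0.16 for the ferredoxin gene FD2 and 0.07 for LFNR2. Calvin cycle genes split 9 and 9, or 14 and 4 with centred arrays (median 0.0054), with 0.18 for PRK and 0.13 for GAPB. Chlorophyll synthesis genes were higher for 7 of 18, or 11 of 18 with centred arrays (median -0.02), with -0.30 for CHLI2 and -0.48 for PORA.

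Photoprotection and repair genes were higher in the transgenic line for 2 of 7 (median -0.06), with -0.29 for VDE1, an enzyme of the xanthophyll cycle, and -0.20 for STN7, the kinase that phosphorylates LHCII. Regulators of photosynthesis genes were higher for 5 of 13 (median -0.04), with -0.20 for PIF1 and 0.34 for HY5. HY5 read 37.7 and 77.4 on the wild-type arrays, against 71.2 and 65.2 with the transgene, so its groups overlapped. Clock genes had medians of -0.15 for 5 morning genes, with 0.37 for CCA1 and -0.19 for LHY. For 5 evening genes the median was -0.04, with -0.17 for TOC1 and -0.22 for PRR5. Among the morning genes 1 lay near background.

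Between the sets, several of these lists held genes that differed as widely as LHCB2. Among regulators 10 of 13 were higher in set 2 (median 0.15). SIG5, a sigma factor for chloroplast transcription, read 37.7 and 90.1 on the wild-type arrays, against 38.1 and 89.9 with the transgene, a log2 difference of 1.25 (adjusted p = 0.122), and HYH had 1.002. GLK2, an activator of antenna genes that was chosen after its values were seen, had 1.05 (adjusted p = 0.192), while its paralogue GLK1 had 0.15. All 5 evening clock genes were higher in set 2 (median 0.79), with 1.74 for GI (adjusted p = 0.0929) and 1.11 for PRR5, and 4 of 5 morning genes were higher (median 0.56), with 0.93 for PRR7 and 1.099 for PRR9. The fifth morning gene, LHY, was lower in set 2 without overlap, by a log2 difference of -0.66 (adjusted p = 0.221 in limma). Of the 5 morning genes 1 was near background. The summed intensity of the evening genes was 1452 and 1234 in the arrays of set 1 and 2220 and 2218 in those of set 2. The part of the clock genes or of harvest time in the LHCB2 values was not tested.

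In chlorophyll synthesis PORA and CAO, the enzyme of chlorophyll b formation, had set differences of 1.05 and 0.58, with 9 of 18 genes higher (median -0.0046). In the Calvin cycle FBA1 had 0.81 and RPE -0.23 (median of 18 genes -0.04). ZEP and STN7 had 0.46 and 0.30 (5 of 7 photoprotection genes higher, 4 with centred arrays, median 0.08), PGR5 and FD1 had 0.36 and 0.28 (3 of 12 electron transport genes higher, median -0.04), and CPFTSY and CPSRP43 had -0.27 and 0.14 (2 of 4 higher). Among the further subunit and assembly genes LHCB7, a distant relative of the LHCB genes, had 0.67 and LIL3:2 had -0.46 (6 of 12 higher).

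The samples were checked against tissue markers. The 4 green leaf markers were bright, at mean intensities from 959 to 1324, whereas all 5 root, 4 seed and 2 flower organ markers were near background on the arrays of both genotypes; the labels say seedling and name no organ. None of these markers was called in either comparison. The leaf markers had genotype differences from -0.12 (AGT1) to 0.09 (GLDP1). All 4 were higher in set 2, by 0.14 to 0.35, with 0.35 for AGT1 and 0.18 for CA1, and their summed intensity was 4111 and 4185 in set 1 and 4866 and 4711 in set 2. In seedling RNA a smaller share of green cells and less RNA per cell cannot be told apart, and the part of tissue composition in the set differences was not tested. The near-background markers named by their moderated t were NRT2.1, PRP3 and EXPA7 for root, CRA1, CRU3 and SESA1 for seed, and PI and AP3 for flower organs, with log2 differences between -0.85 and 0.64.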

How the data were processed

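Total RNA was labelled with Cy3 and hybridised to one-colour NimbleGen arrays, per the labels. The deposited values are normalized intensity values per transcript model, made with RMA per the submitters' processing notes, with version, settings and genome build not given in the sources used here. They span 1.50 to 4400, which was read as a linear scale, and log2 of the deposited intensities was used without a pseudocount. For each of 32627 genes the brightest of its models (37118 in all) was used. Names came from the TAIR10.1 gene table, which held 98.1% of the locus codes. No coordinates or sequences are given, and the promoter motif counts that had been planned were not made, since no sequence was used here. Genotypes, and sets with genotype as a second term, were tested in R 4.3.3 by limma 3.58.1 (two-sided, Benjamini-Hochberg over all genes, called below 0.05), and intervals are 95% and unadjusted. The procedure was checked on simulated data with planted changes larger than the difference of any member. That check does not show how small a difference could be detected. Plots used matplotlib 3.10.9. The number of arrays limits precision.

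Members, lists and the set comparison were chosen with earlier results of these data known. In each list the genes called, up to 6, or else the 2 with the largest absolute moderated t were named. GLK2, GLK1 and LHY were named between the sets outside that rule. Of 118 list entries 109 were used. AT2G26500 and 8 chloroplast locus codes were left out because the table did not give their names. Every member was recomputed under each alternative. The sign of a difference between overlapping groups is given as a value only, and stability of direction was judged for the members whose groups did not overlap. Same-numbered arrays deviated together from the means of their genotypes (r = 0.42 over all genes, 0.67 over the 18259 above the valley), and the pairing itself was read from the design text. The alternatives were the mean of all models, a pseudocount of 16, genes above the median level, quantile normalization, median centring, trend and robust settings, the replicate block or no genotype term, and leaving out each array.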

Additional observations from a re-analysis of the deposited data

How the results depend on the processing

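No member was called for genotype under any alternative, including the replicate block, under which the count over all genes was 0, as it was without each array in turn. That count was 1 with trend and robust settings and 1 among genes above the median level, and in both no member was called. The count of genes called between the sets moved from 4 to 0 with the mean of all models, 0 with quantile normalization, 87 without the genotype term, 1852 with a pseudocount of 16, 2106 among genes above the median level and 3553 with trend and robust settings. The cause was not tested. Leaving out 1 array gave no test there, since no residual degree of freedom was left.

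LHCA3 turned to 0.0817 for genotype with the mean of all models, because its dimmer model was higher in the transgenic line, and no other member with separate arrays changed sign. Of all 44 members 8 changed sign for genotype with centred arrays, and 8 to 16 without single arrays. With arrays centred on their medians, which moved the median genotype difference of all genes from -0.0039 to 0.02, the genotype medians were 0.0153 for photosystem I and 0.0527 for photosystem II, and the set medians 0.0224 for the antenna and -0.0337 for photosystem I. The set median of the antenna was 0.112 with the mean of all models and 0.0684 among genes above the median level. Without single arrays the genotype medians ran from -0.112 to 0.0386 for the antenna, from -0.0304 to 0.0252 for photosystem I and from -0.0224 to 0.0519 for photosystem II, values that carry the difference between the sets, and the set median of the antenna ran from 0.0897 to 0.112. The 3 genotype medians thus changed sign when single arrays were left out, and the set median of the antenna did not. The set medians of photosystem I and photosystem II also changed sign, running from -0.0259 to 0.00698 and from -0.078 to 0.0084. Each such set median comes only from the genotype that kept both arrays, so the stability of set and genotype medians cannot be compared directly.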
